A study of Mus musculus with 10 samples.

Results

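The 10 core circadian clock genes Arntl, Clock, Per1, Per2, Per3, Cry1, Cry2, Nr1d1, Nr1d2 and Dbp were examined in RNA-seq of mouse lung. They were found by gene symbol, all 10 were in the table of 24394 symbols, and they accounted for 16 of its 66548 transcript rows. All mice were female BALB/c, an inbred strain that responds readily to allergens, bought at 8 weeks of age. Saline mice (n = 3) received saline and served as controls. OVA mice (n = 3) were sensitized by intraperitoneal injection of ovalbumin with alum and then challenged intranasally with ovalbumin under isoflurane, a short-term asthma model. Herb mice (n = 4) went through the same ovalbumin protocol and received an ethanol extract of Descurainia sophia seeds by mouth, which the study calls DSE. The light cycle and the hour at which lungs were taken were not given in the sources used here.

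The mammalian clock is a delayed negative feedback loop. ARNTL (also called BMAL1) and CLOCK pair on E-box DNA and switch on the Per and Cry genes, whose proteins later return to the nucleus and repress the pair. The same pair drives Nr1d1 and Nr1d2 (REV-ERB alpha and beta), which repress Arntl through ROR elements, and Dbp, which acts on D-boxes in genes such as Per3. In mouse peripheral tissues, lung included, Arntl and Dbp peak at opposite times of day, so that their ratio within a sample is a simple guide to the position in the cycle. Whole lung mixes epithelium, endothelium, stroma and leukocytes, and in such bulk tissue fewer cells of a type and less RNA per cell cannot be told apart.

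The sequences that link these genes into the loop were looked for in the RefSeq promoter windows (GRCm38.p6, 250 bases before to 50 bases after each start). There were 13 such windows for 9 of the members. The letters searched, on both strands, were CACGTG (the canonical E-box), TTATGTAA or TTACGTAA (D-box) and AGGTCA (the core shared by ROR elements). All matches upstream of a start are shown, with the matched letters in capitals. A ROR core also lay 31 bases after a start of Arntl and is not drawn. No match was found for Dbp, Nr1d1 or Cry2, and Per2 had no window.
Cry1, E-box 60 bases before the start, chr10:85185092-85185131, minus strand: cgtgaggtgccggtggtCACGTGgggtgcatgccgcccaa
Per1, E-box 166 bases before a start that lies inside the gene's full span, chr11:69098766-69098805, plus strand: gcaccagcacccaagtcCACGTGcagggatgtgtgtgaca
Per1, ROR core read on the other strand, 137 bases before the same start, chr11:69098795-69098834, plus strand: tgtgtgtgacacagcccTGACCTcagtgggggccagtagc
Per3, D-box 205 bases before the start, chr4:151044846-151044887, minus strand: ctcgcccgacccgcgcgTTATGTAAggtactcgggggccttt
Per3, D-box 158 bases before the start, chr4:151044799-151044840, minus strand: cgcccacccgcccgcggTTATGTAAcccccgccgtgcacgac
Clock, ROR core read on the other strand, 119 bases before one of its starts, chr5:76303599-76303638, minus strand: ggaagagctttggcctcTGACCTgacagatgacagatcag
Nr1d2, ROR core 77 bases before the start, chr14:18239161-18239200, minus strand: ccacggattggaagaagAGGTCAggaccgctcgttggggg
Of all 32851 promoter windows, 7.15% held the E-box, 1.06% one of the D-box spellings and 16.3% the ROR core. The members were not tested against these shares. A match is a description of letters and not a measured binding site.

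Values were the deposited FPKM, a fragment count corrected for transcript length and for the mapped total of the library, summed over the rows of a symbol. The mean over the 10 libraries put Clock highest at 10.4 FPKM, followed by Arntl at 7.06, Per1 at 5.59, Cry1 at 4.35, Cry2 at 3.81, Nr1d2 at 3.64 and Per3 at 2.80. Per2 (1.00), Nr1d1 (0.732) and Dbp (0.661) were lowest. Estimated depth ran from 14700000 to 29500000 fragments per library, which left 14.3 to 35.7 fragments behind a Dbp value, 1.9 to 55.6 behind Nr1d1 and 0.7 to 374 behind Per2, against 676 to 3343 for Clock. Counting error thus weighs most on Dbp, Nr1d1 and Per2, while the standard error (SE) of the OVA vs. Saline log2 change, given below, was largest for Cry2.

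The scale of the libraries moved with the groups. FPKM of most genes were lower in OVA, with a median log2 fold change over the 11205 gene sums tested of -0.75 for OVA vs. Saline, 0.48 for Herb vs. OVA and -0.27 for Herb vs. Saline. Setting the 75th percentile of every library to the same value multiplied FPKM by 0.720 to 0.726 in Saline, 1.46 to 1.82 in OVA and 0.900 to 1.16 in Herb, and brought these medians to 0.08, 0.01 and 0.09. Because many changes differ between the 2 scales, both are given for the members' main results. Marker sums moved too. All 6 lung epithelial markers were detected in every group, with sums of 16640 to 26260 FPKM in Saline, 2840 to 5440 in OVA and 8419 to 13480 in Herb. These sums were carried by Scgb1a1 and Sftpc, and Foxj1, a ciliated cell marker of the same list, went the other way, at 2.72 to 6.66, 7.94 to 21.4 and 8.27 to 13.9 FPKM. The 3 erythroid genes summed to 2599 to 3237, 1.99 to 288 and 338 to 766 FPKM, the 5 endothelial genes to 319 to 400, 69.7 to 110 and 147 to 271 FPKM, and the 6 leukocyte genes found of 7 to 13.2 to 14.5, 5.19 to 9.01 and 11.5 to 17.4 FPKM. The part of cell makeup in the clock gene values was not tested.

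**Figure D1:**
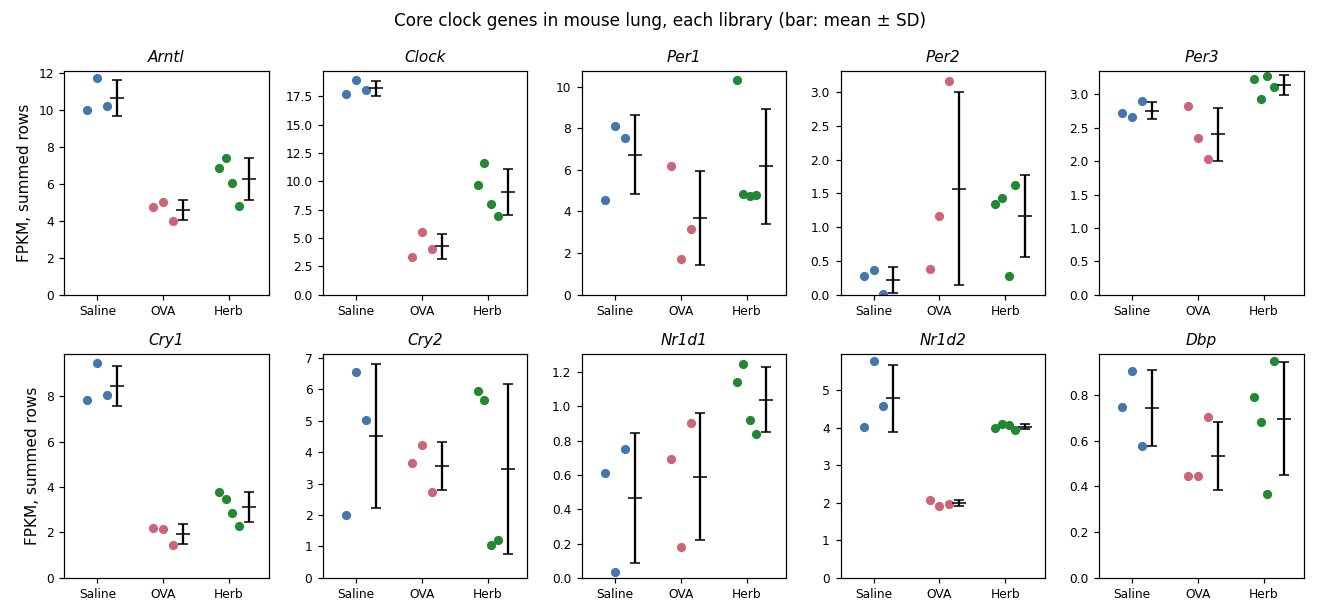
Deposited FPKM, summed per gene, of the 10 clock genes. Each point is 1 library (3 Saline, 3 OVA, 4 Herb) and the bar beside it gives the mean ± SD. Clock and Cry1 stood highest in Saline and lowest in OVA without overlap, while Per1, Cry2 and Dbp overlapped between groups.

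Changes were tested with limma on log2(FPKM + 1), with Benjamini-Hochberg adjustment over all features, and called at an adjusted p under 0.05. Of the 10 members, 8 had a mean of at least 1 FPKM and were tested in this fit. Fold changes are on the FPKM + 1 scale, which understates those of low genes. For Nr1d1 and Dbp, which fell below the filter, values come from the fit without it. In OVA vs. Saline, 4 of the 8 fell (Arntl, Clock, Cry1 and Nr1d2) and none rose as deposited, against 57.9% of all gene sums called lower and 3.28% called higher. The median log2 fold change of the 8 was -0.87. After rescaling, Clock and Cry1 fell and Per2 and Per3 rose, against 17.2% lower and 24.1% higher over all genes, so the share of members called was 4 of 8 against 41.2%. The number of calls was therefore near that of the transcriptome, and the description below turns on which members were called. The rescaled count includes Per2, which passed the filter narrowly, at a mean of 1.003 FPKM. Its row had means of 0.218 FPKM in Saline, 1.57 in OVA and 1.17 in Herb. It was thus tested only through the groups where it was high, and its call gives no support of its own.

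Of the activating pair, Clock, the DNA-binding partner of ARNTL, changed most. It measured 17.7, 19.0 and 18.0 FPKM in the Saline libraries, 3.32, 5.51 and 3.99 in OVA, and 9.70, 11.6, 7.96 and 6.98 in Herb. The 3 groups did not overlap on this scale, as was also so, in the same directions, for 63.0% of gene sums in OVA vs. Saline, 49.6% in Herb vs. OVA and 36.6% in Herb vs. Saline. Clock fell by 1.89 ± 0.20 on the log2 scale in OVA vs. Saline (SE; adjusted p = 0.000151), a 3.70-fold lower value, and by 0.87 ± 0.14 after rescaling (adjusted p = 0.00238). The median gene of similar level (5 to 20 FPKM) changed by -1.19 as deposited and -0.20 rescaled, so that Clock lay below both.

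Arntl, the partner without which the loop stops, measured 9.96, 11.7 and 10.2 FPKM in Saline, 4.75, 4.99 and 3.98 in OVA, and 6.82, 7.40, 6.03 and 4.78 in Herb. All OVA and Herb values lay below the lowest Saline value, as in 63.0% and 36.6% of gene sums. As deposited, Arntl fell by 1.06 ± 0.16 in OVA vs. Saline (adjusted p = 0.000435). Rescaled, the difference was -0.05 (95% interval -0.38 to 0.28, adjusted p = 0.809). In the within-library ratio, which no scaling of a library can alter, Clock stood at 1.78, 1.62 and 1.77 times Arntl in Saline, 0.70, 1.10 and 1.00 in OVA, and 1.42, 1.57, 1.32 and 1.46 in Herb. The 3 groups were separate in this ratio, which was chosen after the values were seen. Over Arntl, 48.3% of gene sums did not overlap between OVA and Saline in either direction, 18.3% in the lower one. Between Herb and OVA 19.7% did not overlap in either direction, and 4.76% lay lower in Herb than in Saline.

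Of the 16 transcript rows 10 passed the filter. As deposited, 5 of these fell in OVA vs. Saline, 3 rose in Herb vs. OVA and 3 fell in Herb vs. Saline, against 41.1%, 31.7% and 6.26% of all rows. By the assembler's split, the Clock difference was uneven between its rows. The row NM_001289826 held 10.2, 11.4 and 12.3 FPKM in Saline, 0.378, 0.259 and 2.29 in OVA, and 3.83, 3.12, 2.70 and 2.38 in Herb. The row NM_007715 held 2.64, 1.59 and 2.64 FPKM in Saline, 2.90, 5.21 and 0.843 in OVA, and 3.59, 4.42, 2.36 and 1.53 in Herb, with all groups overlapping. In OVA vs. Saline, NM_001289826 fell by 2.78 ± 0.33 and NM_001305222 by 2.12 ± 0.29 (adjusted p = 0.000505 and 0.000678), whereas NM_007715 changed by 0.13 ± 0.43 (adjusted p = 0.838). The first 2 also passed after rescaling, at -2.21 and -1.74 (adjusted p = 0.00461 and 0.00655), against 13.4% of rows called lower. NM_007715 made up 8.36% to 14.9% of the Clock sum in Saline but 87.4% and 94.6% in OVA replicates 1 and 2, and 21.1% in OVA replicate 3. Rows of a gene share most of their reads, and the split between them is an estimate of the assembler. Which Clock transcripts changed is therefore not settled by these rows.

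Per3 showed how unsettled that split can be. Its row NM_001289878 carried nearly all of the gene's signal in 8 libraries, while NM_011067 carried 98.6% in OVA replicate 1 and 99.7% in Herb replicate 4. The third row, NM_001289877, was listed at 0 in all 10 libraries. The sums were even across these libraries, and no Per3 row was read by itself.

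**Figure D2:**
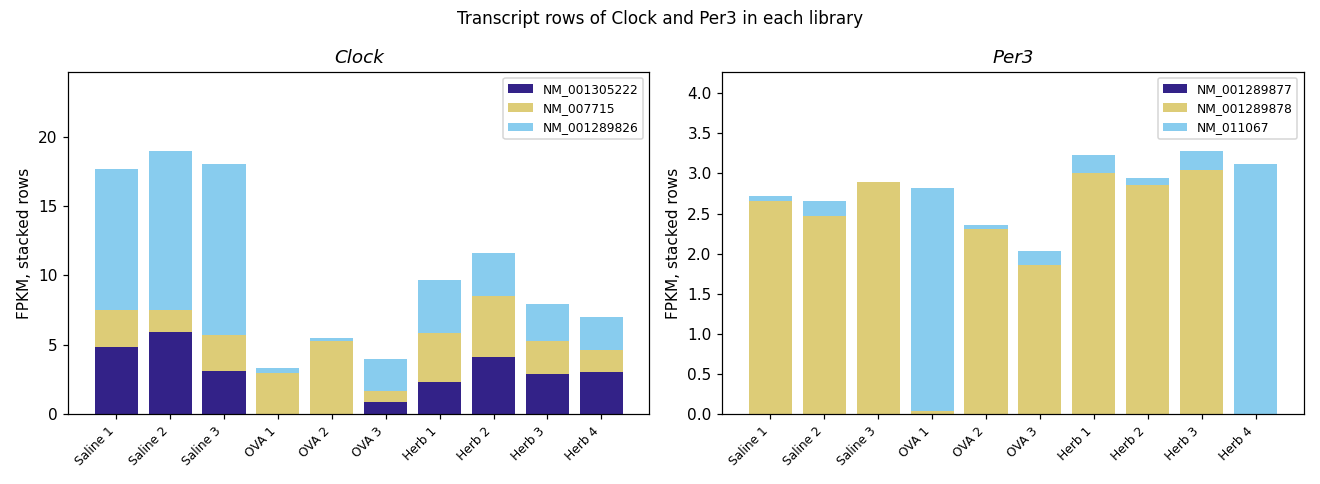
Deposited FPKM of the transcript rows of Clock (left) and Per3 (right), stacked for each of the 10 libraries. The light-blue Clock row NM_001289826 reached 10.2 to 12.3 FPKM in Saline and 0.259 to 2.29 in OVA, and the Per3 signal moved from NM_001289878 to NM_011067 in OVA 1 and Herb 4.

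Of the repressor arm, Cry1, the stronger repressor of the cryptochromes, followed Clock. It measured 7.84, 9.45 and 8.03 FPKM in Saline, 2.19, 2.15 and 1.44 in OVA, and 3.78, 3.47, 2.87 and 2.29 in Herb. None of these groups overlapped as deposited, as was so in the same directions for 63.0% (OVA vs. Saline), 49.6% (Herb vs. OVA) and 36.6% (Herb vs. Saline) of gene sums. Cry1 fell by 1.70 ± 0.17 in OVA vs. Saline (adjusted p = 0.000149) and by 0.80 ± 0.17 after rescaling (adjusted p = 0.00682). With libraries rescaled instead to a common sum over protein-coding rows, it fell by 0.49 without passing (adjusted p = 0.0758).

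Cry2, its paralog, was scattered within groups, at 2.01, 6.54 and 5.01 FPKM in Saline, 3.67, 4.24 and 2.74 in OVA, and 5.94, 5.65, 1.05 and 1.22 in Herb. Its log2 change in OVA vs. Saline was -0.19 ± 0.54 as deposited and 0.73 ± 0.50 rescaled (adjusted p = 0.774 and 0.271). The Cry2 locus has an antisense transcript, and how the libraries treated strand is described differently by the labels and the study's methods.

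Among the Period genes, which pair with the cryptochromes, Per3 held its level while most genes fell. It measured 2.72, 2.66 and 2.90 FPKM in Saline, 2.82, 2.35 and 2.04 in OVA, and 3.23, 2.94, 3.28 and 3.12 in Herb. As deposited its change in OVA vs. Saline was -0.15 ± 0.11 (adjusted p = 0.263), against a median of -0.65 for genes of 2 to 5 FPKM. Rescaled, Per3 rose by 0.70 ± 0.16 (adjusted p = 0.00747), against 0.19 for those genes. The direction of Per3 thus depended on the scale, and its position above the median gene did not.

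Per1, also an early target of glucocorticoids, measured 4.55, 8.11 and 7.50 FPKM in Saline, 6.17, 1.72 and 3.14 in OVA, and 10.3, 4.84, 4.75 and 4.78 in Herb. In the RefSeq rows, OVA replicates 2 and 3 lay below all other libraries, and OVA replicate 1 lay among them. Its change in OVA vs. Saline was -0.80 ± 0.39 as deposited (adjusted p = 0.102) and 0.15 ± 0.44 rescaled (adjusted p = 0.809), and without OVA replicate 1 it fell by 1.17 as deposited (adjusted p = 0.0252). The glucocorticoid-induced genes Tsc22d3 and Sgk1 fell on both scales in that comparison, Tsc22d3 by 2.39 and 1.25 (adjusted p = 0.00122 and 0.0292) and Sgk1 by 2.45 and 1.52 (adjusted p = 0.000253 and 0.00419). Zbtb16 changed by 0.28 and 1.19 without passing (adjusted p = 0.833 and 0.35). Fkbp5, below the filter, changed by 0.43 and 0.73 in the unfiltered fit (adjusted p = 0.151 and 0.0328). The part of glucocorticoids in the Per1 values was not tested.

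Per2 needed its neighbour in the table to be read. Its RefSeq row NM_011066 measured 0.279, 0.369 and 0.00625 FPKM in Saline, 0.385, 1.17 and 3.16 in OVA, and 1.35, 1.43, 0.276 and 1.62 in Herb. Read alone, Per2 was higher in OVA by 0.94 ± 0.41 without passing as deposited (adjusted p = 0.0716), and rose by 1.39 ± 0.44 rescaled (adjusted p = 0.0313). The row passed the filter only through the groups where it was high. The next row held an assembled model with no gene symbol, at 8.55, 6.85 and 7.40 FPKM in Saline, 4.68, 3.02 and 0.0997 in OVA, and 4.24, 3.63, 5.73 and 1.61 in Herb. The 3 Saline libraries were high in the model and low in the row, and OVA replicate 3 was the reverse. The numbering of the assembled models leaves a gap that the Per2 row fills, so both may describe 1 locus. This placement rests on row order alone, since the table has no coordinates.

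Summed, the row and the model gave 8.83, 7.22 and 7.41 FPKM in Saline, 5.06, 4.18 and 3.26 in OVA, and 5.59, 5.06, 6.01 and 3.23 in Herb. All OVA and Herb values were below the Saline values, as in 63.0% and 36.6% of gene sums without models. The sum fell by 0.78 ± 0.21 in OVA vs. Saline (adjusted p = 0.00953), the opposite direction to the row alone, and changed by 0.21 ± 0.24 rescaled (adjusted p = 0.518). The rise of the Per2 row was therefore not seen in the sum. For Cry2, 2 unnamed models of 1 locus number were added, of which only MSTRG.16919.1 lay directly beside the row. They brought the sums to 12.7, 11.3 and 12.9 FPKM in Saline, 10.3, 9.14 and 6.97 in OVA, and 13.2, 13.1, 9.47 and 7.17 in Herb. The Cry2 sum changed by -0.45 ± 0.23 as deposited and 0.61 ± 0.22 rescaled (adjusted p = 0.115 and 0.0508), and its models could equally belong to the antisense transcript.

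**Figure D3:**
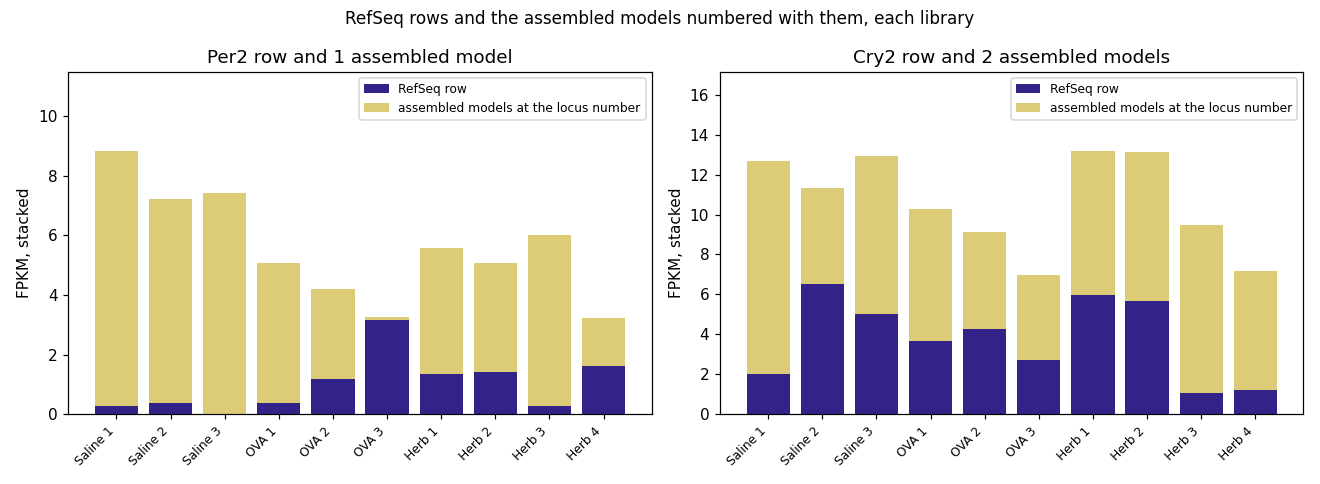
Deposited FPKM of the RefSeq row (dark) and of the assembled models added to it (yellow), stacked for each library, for Per2 (left) and Cry2 (right). The Per2 model was next to its row in the table, and of the Cry2 models only MSTRG.16919.1 was. In Saline the Per2 signal lay almost wholly in the model, at 6.85 to 8.55 FPKM, and in OVA replicate 3 almost wholly in the RefSeq row, at 3.16 FPKM.

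The REV-ERB repressors differed in how well they were measured. Nr1d2 was tight, at 4.01, 5.77 and 4.57 FPKM in Saline, 2.08, 1.92 and 1.96 in OVA, and 4.004, 4.09, 4.06 and 3.95 in Herb. The OVA values lay below Saline, as in 63.0% of gene sums, and below Herb, as in 49.6%. It fell by 0.94 ± 0.12 in OVA vs. Saline as deposited (adjusted p = 0.000213), and the rescaled difference was -0.07 (95% interval -0.39 to 0.25, adjusted p = 0.718). Nr1d1, usually one of the strongest rhythms in the body, measured 0.611, 0.0334 and 0.751 FPKM in Saline, 0.692, 0.178 and 0.902 in OVA, and 1.15, 1.25, 0.923 and 0.839 in Herb. Saline replicate 2 rested on 1.9 estimated fragments. The change in OVA vs. Saline was 0.13 ± 0.23 as deposited and 0.48 ± 0.25 rescaled (adjusted p = 0.729 and 0.203). Nr1d1 overlaps the Thra gene on the other strand, so its reads may not all be its own. The unnamed model MSTRG.5237.2 beside it held 0.853 FPKM in Saline replicate 2 and 0.363 in OVA replicate 2. In the other Saline and OVA libraries this model was at 0. Its numbering leaves no gap that Nr1d1 would fill, and whether it belongs to Nr1d1 was not tested.

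Dbp, an output factor and direct target of the activating pair, measured 0.749, 0.907 and 0.576 FPKM in Saline, 0.446, 0.446 and 0.704 in OVA, and 0.789, 0.682, 0.365 and 0.950 in Herb. The groups overlapped. Its change in OVA vs. Saline was -0.19 ± 0.14 as deposited and 0.20 ± 0.14 rescaled (adjusted p = 0.372 and 0.358).

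**Figure D4:**
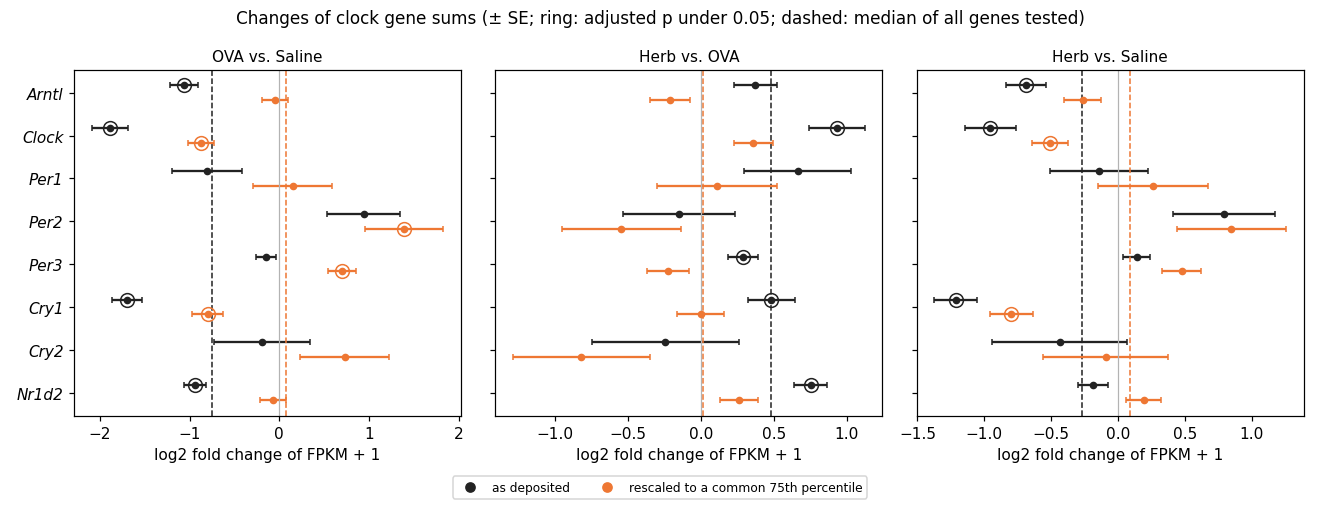
Log2 fold changes of FPKM + 1 (± SE) for the 8 tested clock genes in the 3 comparisons, as deposited (black) and rescaled to a common 75th percentile (orange). Rings mark an adjusted p under 0.05 and dashed lines the median of all genes tested. Clock and Cry1 were ringed on both scales in both comparisons with Saline, and no gene was ringed after rescaling in Herb vs. OVA.

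Herb vs. OVA asked whether the extract altered the clock genes of challenged lungs. It uses the same OVA libraries as the comparison above, so that opposite signs between them are partly built in. As deposited, Clock, Cry1, Nr1d2 and Per3 rose, 4 of 8 against 44.0% of all gene sums called higher. Clock rose by 0.93 ± 0.19, Nr1d2 by 0.75 ± 0.11, Cry1 by 0.48 ± 0.16 and Per3 by 0.29 ± 0.10 (adjusted p = 0.00774, 0.00716, 0.0357 and 0.0452). The call of Cry1 was lost without any 1 of Saline replicate 3, OVA replicates 1 and 3 or Herb replicates 1 and 2 (adjusted p up to 0.118). That of Per3 was lost without any 1 of 9 of the 10 libraries, OVA replicate 1 being the exception (adjusted p up to 0.144).

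After rescaling, limma called none of the 8, against 0.803% of all gene sums, and 1 of the 8, Clock, had an unadjusted p under 0.05. The rescaled Clock difference was 0.36 (95% interval 0.05 to 0.67, adjusted p = 0.138). For Nr1d2 it was 0.26 (-0.04 to 0.56), for Per3 -0.23 (-0.56 to 0.10) and for Arntl -0.21 (-0.52 to 0.10), while Cry1 lay at -0.0022 (-0.37 to 0.36). The widest were Cry2 at -0.82 (-1.88 to 0.24), the Per2 row at -0.55 (-1.47 to 0.38) and Per1 at 0.11 (-0.82 to 1.045). These intervals do not show that Herb and OVA were alike. Dbp changed by 0.14 ± 0.14 as deposited and -0.12 ± 0.13 rescaled.

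Herb vs. Saline asked whether challenged and treated lungs differed from controls, and shares its Saline libraries with the first comparison. Arntl, Clock and Cry1 fell as deposited, 3 of 8 against 22.7% of gene sums called lower. Cry1 fell by 1.21 ± 0.16, Clock by 0.96 ± 0.19 and Arntl by 0.69 ± 0.15 (adjusted p = 0.00675, 0.0117 and 0.0142), the last not passing without Saline replicate 2 (adjusted p = 0.0587). Rescaled, Cry1 fell by 0.80 ± 0.16 and Clock by 0.51 ± 0.14 (adjusted p = 0.0191 and 0.0379), against 5.09% of gene sums called lower, and Arntl changed by -0.26 ± 0.14 (adjusted p = 0.219). Clock missed the threshold under quantile normalization, at -0.39 (adjusted p = 0.111), and with protein-coding sums, at -0.32 (adjusted p = 0.128). Cry1 passed under all 18 alternatives in this comparison.

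Per3 and Nr1d1 had every Herb value above every Saline value on both scales, as did 6.94% of gene sums as deposited and 24.6% rescaled, without passing. Per3 changed by 0.14 ± 0.10 as deposited and 0.48 ± 0.15 rescaled (adjusted p = 0.331 and 0.0565). Nr1d1 changed by 0.51 ± 0.22 and 0.59 ± 0.23 in the unfiltered fit (adjusted p = 0.166 on both scales). With the unnamed model MSTRG.5237.2 added, Saline replicate 2 came to 0.886 FPKM, above Herb replicate 4 at 0.839, so the groups overlapped as deposited. With MSTRG.5237.1 added instead, Saline ran from 1.91 to 2.76 FPKM and Herb from 3.17 to 3.74. The Per2 row was above Saline in all Herb libraries only after rescaling, at 0.85 ± 0.41 (adjusted p = 0.184), and with the assembled model the sum changed by -0.17 ± 0.23 rescaled (adjusted p = 0.645).

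Rescaled levels put Cry1 at 6.11 ± 0.66 FPKM in Saline, 3.14 ± 0.84 in OVA and 3.10 ± 0.53 in Herb (SD). Clock stood at 13.2 ± 0.54, 6.82 ± 1.07 and 9.04 ± 1.35, and Arntl at 7.69 ± 0.72, 7.42 ± 1.14 and 6.27 ± 0.91. On this scale Cry1 had similar means in both ovalbumin groups, and the Clock mean in Herb lay between the other means. The Clock values of Herb (7.21 to 10.5 FPKM) and OVA (6.03 to 8.03) overlapped, and their difference did not pass.

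Whether the position in the daily cycle differed was read from 8 ratios of an Arntl-phase or late gene to a daytime or output gene within each library. These ratios are free of any library scaling, and they are given without a test. Arntl exceeded Dbp in all 10 libraries, by 12.9 to 17.7 times in Saline, 5.65 to 11.2 in OVA and 5.03 to 16.5 in Herb. It also exceeded Nr1d1 in all 10, by 4.41 to 351 times. The 351 came from Saline replicate 2, where Nr1d1 rested on 1.9 estimated fragments, and Saline replicates 1 and 3 stood at 16.3 and 13.6. No library had the order reversed for either gene.

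The log2 ratio of Arntl to Dbp was 3.86 ± 0.25 in Saline, 3.13 ± 0.55 in OVA and 3.23 ± 0.71 in Herb (SD). OVA lay below Saline without overlap, as did 33.8% of all gene sums over Dbp, and Herb overlapped both. The log2 ratio of Arntl to Per3 was 1.94 ± 0.17 in Saline, 0.93 ± 0.17 in OVA and 0.98 ± 0.30 in Herb. OVA and Herb both lay below Saline, as did 53.3% and 45.1% of gene sums over Per3. The log2 ratio of Cry1 to Dbp was 3.52 ± 0.24, 1.87 ± 0.72 and 2.21 ± 0.71, again with both ovalbumin groups below Saline, at a background of 33.8% and 10.9% of gene sums over Dbp. Whether these separations are particular to the clock genes was not tested.

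Of the 8 ratios, 4 did not overlap between OVA and Saline, 5 did not between Herb and Saline, and 0 separated Herb from OVA, where 5.09% of gene sums over Dbp did, 13.1% over Per3, 4.02% over Nr1d1 and 1.79% over Per1. For Arntl over Per2 the separation disappeared with the assembled model added, at log2 ratios of 0.44 ± 0.26, 0.15 ± 0.21 and 0.35 ± 0.26, which left 3 and 4 ratios. The share of gene sums over Per2 was not taken, so the separation of Arntl over the Per2 row has no background and is not read. Arntl over Nr1d1 and Cry1 over Per1 separated Herb from Saline but not OVA from Saline, at a background of 67.7% of gene sums over Nr1d1 and 8.19% over Per1. The unnamed models beside Nr1d1 and Per1 were not added in these ratios. Npas2 over Dbp and Nfil3 over Dbp overlapped in every comparison, although Npas2 shares the phase of Arntl and Nfil3 runs opposite to Dbp. Differences between the ratios were not tested. With 1 collection per mouse and no hour given, the ratios place libraries against each other and give no phase in hours.

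**Figure D5:**
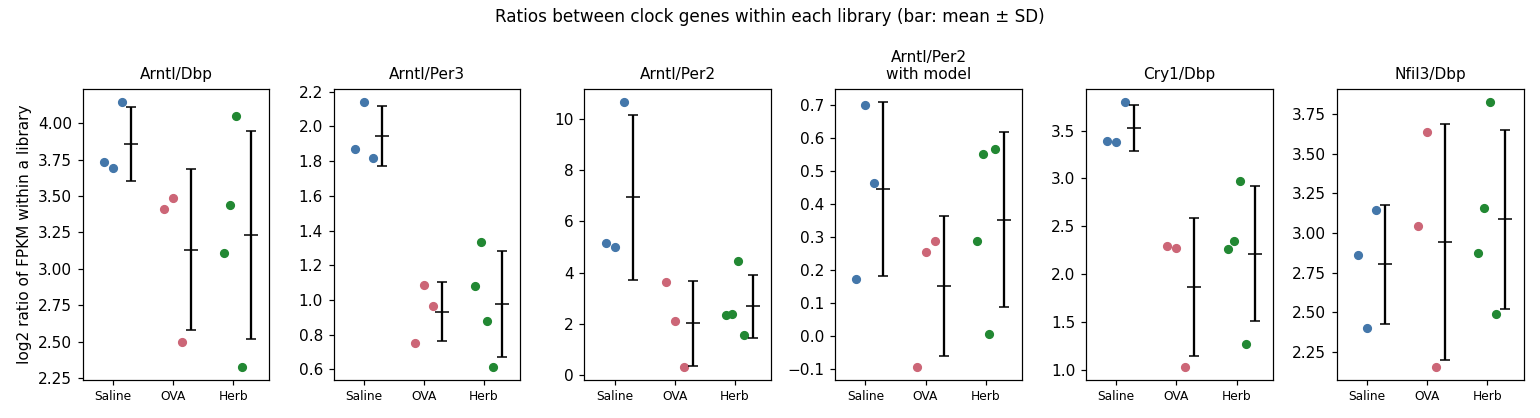
Log2 ratios of FPKM between clock genes within each library (points) with the mean ± SD of each group (bars). Each panel has its own axis. Arntl/Per3 and Cry1/Dbp lay lower in OVA and Herb than in Saline, whereas Nfil3/Dbp and, with the assembled model, Arntl/Per2 overlapped in all 3 groups.

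The other clock genes gave the setting. Of 24 genes in 6 lists (partners, further repressors, the ROR loop, the D-box factors, kinases and ligases, and outputs), 19 passed the filter. In OVA vs. Saline 12 of them fell and 0 rose as deposited, at 57.9% and 3.28% for all genes, with 1 of the 19 having a positive value. Rescaled, 3 rose (Csnk1d, Nfil3 and Timeless) and 4 fell, among them Cdkn1a, Fbxw11 and Rora, against 24.1% and 17.2% of all gene sums. In Herb vs. OVA 6 of the 19 rose as deposited, against 44.0% of all gene sums, and 0 were called rescaled, against 0.803%. In Herb vs. Saline 4 fell as deposited, against 22.7% of all gene sums, and rescaled 3 rose (Csnk1d, Nfil3 and Timeless), against 10.6%. Of the 19, the 12 (as deposited) and 4 (rescaled) that fell in OVA vs. Saline lay above the shares of all genes. So did the 3 that rose rescaled in Herb vs. Saline, and the other counts lay below. Whether the counts differ from those shares was not tested.

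In the ROR loop, which activates Arntl at the elements that REV-ERBs silence, Rora measured 11.4, 11.8 and 10.5 FPKM in Saline, 1.44, 2.68 and 1.16 in OVA, and 6.68, 7.38, 3.55 and 3.76 in Herb. The 3 groups did not overlap, as was so in the same directions for 63.0% (OVA vs. Saline), 49.6% (Herb vs. OVA) and 36.6% (Herb vs. Saline) of gene sums. Rora fell by 2.18 ± 0.28 in OVA vs. Saline and by 1.30 ± 0.24 rescaled (adjusted p = 0.000216 and 0.00329).

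The D-box factors split. Hlf, an activator like Dbp, measured 1.77, 1.81 and 1.89 FPKM in Saline, 0.224, 0.381 and 0.141 in OVA, and 0.631, 0.678, 0.325 and 0.522 in Herb. Every ovalbumin-exposed library was below every control. Without the filter, 8619 of 20819 gene sums lay lower without overlap in OVA vs. Saline and 4581 in Herb vs. Saline. In that fit 7052 were called lower in OVA vs. Saline as deposited and 2464 rescaled. Hlf fell below the filter on its mean, and in the unfiltered fit it fell by 1.18 ± 0.12 and by 0.81 ± 0.11 rescaled in OVA vs. Saline (adjusted p = 0.000275 and 0.00216). Tef, the third activator, fell by 1.55 ± 0.51 as deposited (adjusted p = 0.0247) and changed by -0.87 ± 0.53 rescaled (adjusted p = 0.218). Nfil3, the repressor at the same sites, changed by -0.28 ± 0.16 as deposited (adjusted p = 0.165) and rose by 0.67 ± 0.14 rescaled (adjusted p = 0.00601).

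Npas2, which can replace CLOCK as the partner of ARNTL, fell by 0.65 ± 0.15 in OVA vs. Saline as deposited (adjusted p = 0.00515) and changed by 0.08 ± 0.13 rescaled (adjusted p = 0.669). The repressors Bhlhe40 and Bhlhe41 changed by -0.24 ± 0.25 and -0.08 ± 0.20 as deposited, and by 0.71 ± 0.26 and 0.57 ± 0.21 rescaled (adjusted p = 0.0509 and 0.0536). Ciart, a repressor with a phase like that of Dbp, was listed at 0 in all Saline libraries, at 0.413 FPKM in 1 OVA library and at 0.293, 1.01 and 0.191 in 3 Herb libraries. Among the outputs, Usp2 and Wee1 fell by 0.55 ± 0.19 and 0.57 ± 0.16 as deposited (adjusted p = 0.0281 and 0.012), and changed by 0.13 ± 0.20 and 0.24 ± 0.14 rescaled without passing. The kinase gene Csnk1d, whose product marks PER proteins for decay, fell by 0.59 ± 0.13 as deposited and rose by 0.49 ± 0.10 rescaled (adjusted p = 0.0041 and 0.00462), so its direction rested on the scale.

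By position the members are scattered over the genome (RefSeq, GRCm38.p6). Clock lies at chr5:76209868-76305603, Arntl at chr7:113178471-113314126 and Cry1 at chr10:85131700-85185054. Per1 lies at chr11:69095108-69109965, Per2 at chr1:91415977-91459351 and Per3 at chr4:150997018-151044707. Cry2 is at chr2:92403646-92434085, Nr1d1 at chr11:98767932-98775377, Nr1d2 at chr14:18204056-18239106 and Dbp at chr7:45705100-45710203.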

How the data were processed

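Lung RNA was sequenced as paired-end reads. The authors trimmed reads, aligned them to mm10 with HISAT2, assembled transcripts and deposited FPKM per transcript, per the labels and the study's methods. The labels' processing notes name cutadapt 1.10, StringTie 1.3.3b and edgeR 3.16.5. The labels describe an unstranded TruSeq RNA kit and the study's methods a stranded mRNA kit, which was not resolved. Of the 66548 rows, 34943 had a gene symbol and 31605 were assembled models without symbol or coordinates. Counts were not used here, so no count model was fitted. Depth was estimated from the steps between low FPKM values, of which 39.4% to 46.6% lay within 0.1 of a whole fragment, too few to recover reads.

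Groups came from the sample titles. FPKM were summed per symbol, features with a mean of at least 1 FPKM were kept, and limma 3.58.1 (R 4.3.3) was fitted to log2(FPKM + 1) in all 10 libraries with 3 group means. P-values were adjusted by Benjamini-Hochberg over all features, with a threshold of 0.05. The script was tested on simulated data. Alternatives were a pseudocount of 0.1, no filter, 3 rescalings, each library left out, a replicate block, only the groups compared and no variance trend. Adding the assembled models to Per2 and Cry2, reading those beside Per1 and Nr1d1, and the Clock to Arntl ratio were chosen after seeing the data. Members, gene lists and the rule for named genes (all 10 members, named genes of the lists, any called list member, and the 5 genes most like Arntl and Dbp) were chosen with earlier results of these data known. One gene of the lists is counted but not reported here. Libraries are separate mice per the study's methods.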

Additional observations from a re-analysis of the deposited data

Results flagged for a closer look

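Per1 in Herb replicate 1, at 10.31 FPKM, lay far above the other 3 Herb libraries, which ran from 4.75 to 4.84. It was the only such case in 18 groups of 4 libraries looked at, and chance marks about 1 in 20. Per1 in Herb vs. OVA did not pass with this library (0.66 on the log2 scale, adjusted p = 0.165). With the unnamed model MSTRG.4515.1 added, Per1 came to 16.2, 15.4, 12.4 and 4.78 FPKM in Herb, and replicate 1 no longer stood far apart. Whether that model belongs to Per1 was not tested.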

How the results depend on the processing

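Under the 3 rescalings the values below changed direction, and none of them passed except where stated. The scale of the libraries is what each rescaling changes. With a common 75th percentile, OVA vs. Saline gave 0.15 for Per1, 0.70 for Per3 (adjusted p = 0.00747), 0.73 for Cry2 and 0.20 for Dbp. Herb vs. OVA gave -0.21 for Arntl, -0.23 for Per3, -0.0022 for Cry1, -0.12 for Dbp and -0.37 for the Clock row NM_007715. Herb vs. Saline gave 0.26 for Per1, 0.19 for Nr1d2 and 0.082 for Dbp. Quantile normalization gave 0.090 for Per1, 0.51 for Per3 (adjusted p = 0.035), 0.60 for Cry2 and 0.045 for Dbp in OVA vs. Saline, -0.23 for Arntl, -0.20 for Per3, -0.11 for Dbp and -0.42 for NM_007715 in Herb vs. OVA, and 0.19 for Per1 and 0.084 for Nr1d2 in Herb vs. Saline. A common sum over protein-coding rows gave 0.29 for Arntl, 0.47 for Per1, 0.99 for Per3 (adjusted p = 0.00316), 1.05 for Cry2, 0.23 for Nr1d2 and 0.43 for Dbp (adjusted p = 0.0446) in OVA vs. Saline. It gave -0.38 for Arntl, -0.043 for Per1, -0.38 for Per3, -0.15 for Cry1, -0.23 for Dbp and -0.55 for NM_007715 in Herb vs. OVA, and 0.43 for Per1, 0.057 for Cry2, 0.35 for Nr1d2, 0.20 for Dbp and 0.084 for NM_001305222 in Herb vs. Saline. Clock in OVA vs. Saline fell and passed under all 18 alternatives, with values from -2.10 to -0.52.

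Counts of members called moved likewise. The 4 gene sums called in Herb vs. OVA became 0 under each of the 3 rescalings, 2 without the filter, 2 with only both groups in the fit, and 2 to 4 with 1 library left out. The 3 in Herb vs. Saline became 1 under quantile normalization and 2 to 3 with 1 library left out, and the 4 in OVA vs. Saline 4 to 6. Of single rows, the 5 called in OVA vs. Saline became 3 with a common 75th percentile and 3 with protein-coding sums, and 5 to 7 with 1 library left out. The 3 in Herb vs. OVA became 0 under each rescaling and 0 to 4 with 1 library left out, the 0 being without OVA replicate 1. The 3 in Herb vs. Saline became 1, 1 and 0 under the rescalings and 0 to 3 with 1 library left out, the 0 being without Saline replicate 2. The causes of the changes with 1 library left out were not tested.

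Adding the assembled models, chosen after seeing the data, reversed Per2 to -0.78, 0.20 and -0.58 in OVA vs. Saline, Herb vs. OVA and Herb vs. Saline, and Cry2 to 0.24 in Herb vs. OVA. Same-numbered libraries did not deviate together (r from -0.0021 to 0.086), so the numbers were not taken to pair them. The replicate block gave 1 single row in Herb vs. Saline in place of 3 and 0.016 for Cry2 in Herb vs. OVA, lost Per3 in Herb vs. OVA (adjusted p = 0.112) and added Arntl there (adjusted p = 0.03).

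With 1 library left out, 7 further values crossed 0, none of them called. In OVA vs. Saline, Cry2 ran from -0.58 to 0.082 (Saline replicate 2), Nr1d1 from -0.11 to 0.33 (Saline replicate 2, OVA replicate 3) and NM_007715 from -0.28 to 0.60 (Saline replicate 2, OVA replicate 2). In Herb vs. OVA, Per2 ran from -0.52 to 0.27 (OVA replicate 3, Herb replicate 3), Cry2 from -0.53 to 0.054 (Herb replicates 3 and 4) and NM_007715 from -0.37 to 0.51 (OVA replicate 3, Herb replicate 2). Dbp in Herb vs. Saline ran from -0.12 to 0.053 (Saline replicate 2, Herb replicate 3). The 8 ratios kept their direction with 0.1 FPKM added to both values. Counting depth limits Dbp, Nr1d1 and Per2 most.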

Other observations

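The gene sums most like Arntl in their rescaled profile over the 10 libraries, out of 11204, were Hotairm1 (Pearson r = 0.906), Akap8l (0.887), Gab2 (0.879), Rilpl1 (0.874) and Usp39 (0.869). Those most like Dbp, out of 11205, were Tor2a (0.938), Tpgs1 (0.935), Hid1 (0.911), Ubac2 (0.904) and Sdhaf1 (0.895). No other clock gene was among these 10. The libraries share 3 groups, and the highest of so many correlations over 10 points are a description only.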
